A study of Mus musculus with 346 samples.

Results

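The levels of 10 genes of glial cells were followed across 346 single mammary cells, namely Ngfr, Ncam1, L1cam, Gap43, Fabp7, S100b, Dhh, Egfl8, Lgi4 and Gpr37l1. They form a list of adhesion, neurotrophin and immature Schwann cell genes, and were found by their Entrez numbers as 10 genes of the 25142 analysed. The list used no threshold on a measured value, but it was chosen with earlier results of these data known. The cells came from FVB/NJ mice, an inbred strain, with no treatment given in the labels, and they had been sorted as total mammary epithelium and captured one to a chamber on Fluidigm C1 chips. By the labels and the design text, 144 cells belong to Pre-puberty, from mice 2 weeks old, 136 to Puberty, from mice 4.7 to 4.9 weeks old, and 66 to the Adult stage, from mice 10 weeks old. That text gives 8 mice for each stage, while the study describes its sorts with other numbers of mice, which differ by stage. Of these, 116, 119 and 44 cells passed a coverage filter of 100000 reads and 1500 detected genes, with 109388 to 1189207 reads in a kept cell and medians of 296599, 574770 and 334660 reads. No label tied a cell to a mouse, so each stage counted as 1 sample, differences between stages have no replicate check, no p-value is given, and all intervals cover counting error only.

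Schwann cells are the glia of peripheral nerves. They arise from the neural crest through precursor and immature stages, which carry the low-affinity neurotrophin receptor Ngfr, the adhesion molecules Ncam1 and L1cam and the growth-associated protein Gap43, and those that do not go on to wrap large axons in myelin keep these genes on. Neurotrophins are secreted proteins that nerve endings take up from the tissue they grow into, and Ngfr binds all of them. Fabp7, a fatty acid binding protein of the radial glia and Schwann cell precursors, S100b, a calcium-binding protein widely used to stain Schwann cells, and Dhh, the hedgehog ligand by which Schwann cells signal to the sheath around a nerve, are further genes of this lineage. Lgi4 is a secreted protein that Schwann cells need for myelination, Gpr37l1 an orphan receptor of glia, and Egfl8 a secreted protein with epidermal growth factor-like domains.

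The labelled cell type was checked against marker genes. In pre-pubertal cells the median cell had reads of 0.5 of 14 epithelial markers after thinning to 100000 reads (quartiles 0 to 3.00), against 8.00 in pubertal and 7.00 in adult cells, and of 13.0 of 20 Schwann cell markers (11.0 to 14.0), against 2.00 and 3.00. Summed over the list, the epithelial markers ran from 0 to 11583 CPM (reads of a gene per 1000000 reads) in single pre-pubertal cells with a median of 4.87 CPM, while the pubertal and adult medians were 6753 and 7166 CPM. The Schwann list ran from 652 to 88236 CPM at pre-puberty (median 21428) and had medians of 166 and 564 CPM later. Thus the epithelial label did not match the marker genes of most pre-pubertal cells, and these are called here by their stage alone. The basal keratins Krt14, Krt17 and Krt5 were found in 29.3%, 28.4% and 19.8% of pre-pubertal cells. At puberty they were in 37.0%, 26.9% and 27.7% of cells, and in the adult in 72.7%, 50.0% and 36.4%. The paper describes the pre-pubertal program as basal-like. Of 10 fibroblast markers the pre-pubertal median was 2.00, and the collagen genes Col3a1 and Col1a1 were found in 100% and 94.8% of those cells, the other 8 fibroblast genes in at most 12.9%. Endothelial, immune, neuronal and melanocyte markers had a median of 0 at every stage, as did pericyte markers.

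Stretches around the transcription start were read from RefSeq (GRCm38.p6, the assembly mm10 stands for) for 7 of the 10 genes. Those of Ngfr, Fabp7 and Egfl8 are shown, Ngfr because the other genes were set against it, and Fabp7 and Egfl8 because they had the highest levels per length at pre-puberty. Each runs 5′ to 3′ on the strand of the gene from 250 bases before the start of a RefSeq transcript to 50 after it. For Ngfr and Fabp7 that start is the end of the gene given below, and for Egfl8 it lies 591 bases inside the gene. Capitals mark matches on either strand to 4 letter strings, the SOX-type cores ACAAAG and ACAATG, the TATA string TATAAA and the GC box GGGCGG, and none of the matches overlapped.
Ngfr, chr11:95587649-95587948, minus strand: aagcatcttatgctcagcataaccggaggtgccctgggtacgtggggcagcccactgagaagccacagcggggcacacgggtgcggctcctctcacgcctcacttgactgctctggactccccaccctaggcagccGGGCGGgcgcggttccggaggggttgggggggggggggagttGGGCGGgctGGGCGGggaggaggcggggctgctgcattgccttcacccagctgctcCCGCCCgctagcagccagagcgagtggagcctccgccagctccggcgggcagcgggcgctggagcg
Fabp7, chr10:57784673-57784972, plus strand: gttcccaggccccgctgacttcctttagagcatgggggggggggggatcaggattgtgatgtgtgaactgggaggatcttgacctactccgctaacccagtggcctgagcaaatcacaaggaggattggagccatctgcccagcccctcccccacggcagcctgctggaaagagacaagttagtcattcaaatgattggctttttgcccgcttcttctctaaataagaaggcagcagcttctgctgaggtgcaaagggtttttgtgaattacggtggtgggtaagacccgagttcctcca
Egfl8, chr17:34615922-34616221, minus strand: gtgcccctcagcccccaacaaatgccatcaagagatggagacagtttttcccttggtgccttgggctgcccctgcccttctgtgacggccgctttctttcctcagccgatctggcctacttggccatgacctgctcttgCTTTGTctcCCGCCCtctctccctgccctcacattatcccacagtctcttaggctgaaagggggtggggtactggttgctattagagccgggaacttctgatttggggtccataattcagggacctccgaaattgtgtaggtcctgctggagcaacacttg
The Ngfr stretch was rich in G and C (71.7%, with 23 CG dinucleotides) and held 4 GC boxes, starting 114, 72, 63 and 16 bases before the start. That of Fabp7 had 54.0% G and C, 6 CG dinucleotides and none of the 4 strings. The Egfl8 stretch had 55.7% G and C with 1 GC box and 1 ACAAAG, both on the opposite strand (CCGCCC and CTTTGT as printed). Over all 32851 stretches of this length the median was 52.7% G and C (quartiles 45.7 to 61.7) with 7.00 CG dinucleotides, 35.7% held a GC box, 28.6% either SOX-type core and 13.6% TATAAA. A match is a string of letters only and says nothing of binding.

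Nearly every pre-pubertal cell carried at least 1 of the 10 genes, and few cells did later. After each cell had been thinned to 100000 reads, 114 of 116 pre-pubertal cells (98.3%, exact 95% interval 93.9 to 99.8) had a read of at least 1 of the genes, while 25 of the 119 cells at puberty (21.0%, 14.1 to 29.4) and 6 of the 44 adult cells (13.6%, 5.17 to 27.4) did. The median pre-pubertal cell had 6.00 of the 10 (quartiles 5.00 to 7.00, range 0 to 9), and 95 cells (81.9%) had 5 or more. The median was 0 at both later stages, where the highest cell had 3 of the genes at puberty and 1 in the adult. Summed over the group, the reads came to 2324 CPM at pre-puberty (exact Poisson interval 2309 to 2339), to 29.9 in pubertal cells (28.7 to 31.3) and to 19.7 in adult cells (17.8 to 21.9). Single pre-pubertal cells ran from 10.7 to 7426 CPM for this sum with a median of 2009. At puberty 1 cell, number 55, held 49.0% of the summed reads, and in the adult cell 63 held 45.0%, and without them the sums were 15.4 and 11.2 CPM.

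**Figure D1:**
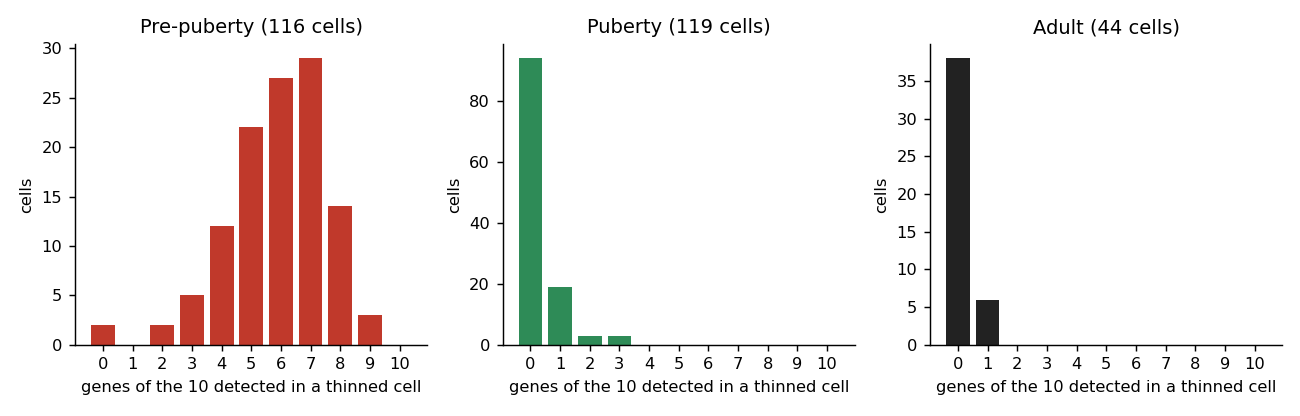
Number of the 10 genes with a read in each cell thinned to 100000 reads (x axis), as the number of cells (y axis, scaled separately), in the kept cells of each stage. Pre-pubertal cells centre on 6 and 7 genes with 2 cells at 0, while 94 pubertal and 38 adult cells had none.

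The summed level of each gene was set against both later stages as a log2 ratio with 5 CPM added to each value, among genes at 10 CPM or more at either stage. All 10 genes had a ratio of 1 or more over puberty, where 21.4% of all 9868 genes did, and over the adult, where 31.7% of 9752 genes did. None was lower by as much, which 24.0% and 28.9% of all genes were. The comparisons share the pre-pubertal cells. The paper lists Ncam1, L1cam and Fabp7 in gene clusters expressed before puberty and names Ngfr as elevated there. It counts Ncam1 and Ngfr among the basal genes of mammary epithelium. Only Ncam1 reached 10 CPM at a later stage, so the other genes entered through their pre-pubertal level. The counts beside all genes are thus a description and no test. The median ratio over the 10 was 4.52 against puberty (all genes −0.12) and 4.75 against the adult (all genes 0.03). The ratios ran from 1.93 for Dhh to 5.56 for Ncam1 against puberty and from 2.12 for Dhh to 6.62 for Egfl8 against the adult. The added constant understates the low genes, and without it, with genes that had no read set at 3 counts of the stage's total, the medians were 6.12 and 8.59.

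**Figure D2:**
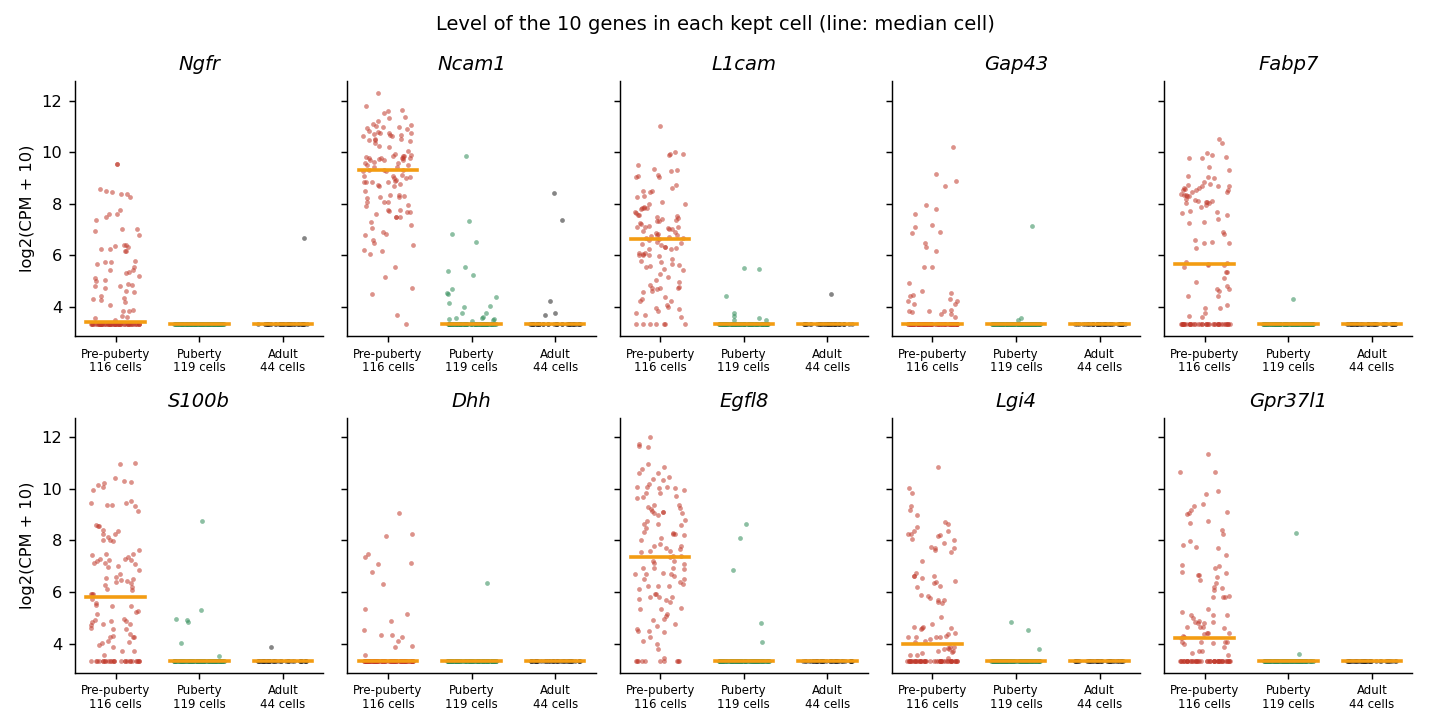
Level of each gene in every kept cell, on a log2 scale of CPM with 10 added, by stage, with one point for a cell and the line at the median cell. A value of no read sits at the bottom line. Ncam1, Egfl8, L1cam, S100b and Fabp7 had medians well above it at pre-puberty. Every gene had its median at the bottom line at puberty and in the adult.

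Ngfr, the low-affinity neurotrophin receptor (Entrez 18053, chr11:95568818-95587698, minus strand), was found in a minority of the thinned pre-pubertal cells. After thinning, 51 of 116 cells had a read (44.0%, 34.8 to 53.5), and with all reads 58 did (50.0%). The level in single pre-pubertal cells ran from 0 to 740 CPM with a median of 0.575, and cells that carried it had a median of 44.7 CPM. Summed, it stood at 62.6 CPM (60.2 to 65.1), of which the top cell held 13.9%. No pubertal cell had a read of Ngfr, which allows a share of up to 3.05% of cells. A single adult cell, number 52, held all 61 adult reads, at 92.0 CPM in that cell, and it had 10 of 14 epithelial and 4 of 20 Schwann cell markers. The fold over puberty was 1430 with the pubertal value set at 3 counts over the stage. It is not a lower bound, since a single cell can bring many reads, as adult cell 52 did. The adult level was 3.26 CPM or, without cell 52, 0.

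Ncam1 and L1cam, immunoglobulin-domain proteins by which axons and glia hold to each other, were, with Egfl8, the most widely found of the genes. Ncam1 (Entrez 17967, chr9:49502129-49799393, minus strand) had a read in 112 of 116 thinned pre-pubertal cells (96.6%, 91.4 to 99.1), and its level ran from 0 to 5061 CPM with a median of 625. It was also the gene most often seen later, where 14 pubertal cells (11.8%, 6.58 to 19.0) and 4 adult ones (9.09%, 2.53 to 21.7) had it. Its summed level was 897 CPM at pre-puberty (888 to 906), 14.2 in pubertal cells and 15.8 in adult cells, and leaving out pubertal cell 55 and adult cell 63, the top ones, gave 3.88 and 7.15 CPM. L1cam (Entrez 16728, chrX:73853778-73880838, minus strand) was found in 99 cells at pre-puberty (85.3%, 77.6 to 91.2) at 0 to 2075 CPM with a median of 89.4. Only 4 pubertal cells (3.36%) and 1 adult cell (2.27%) had it after thinning, the summed levels were 151.2, 0.496 and 0.588 CPM, and adult cell 23 held all 11 adult reads. A pubertal cell with L1cam had at most 35.3 CPM of it, below the pre-pubertal median.

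The genes linked to immature glia and growth differed in how many cells had them. Fabp7 (Entrez 12140, chr10:57784923-57788450, plus strand) was present in 73 thinned pre-pubertal cells (62.9%, 53.5 to 71.7), from 0 to 1446 CPM with a median of 40.3, and its cells had a median of 260 CPM. It was all but missing later, with 4 reads in pubertal cell 77 and none in the adult. The fold over the adult was 1323 with the adult value set by the rule used for Ngfr at puberty, and it is likewise no lower bound. S100b (Entrez 20203, chr10:76253836-76261319, plus strand) was present in 87 cells (75.0%, 66.1 to 82.6), at 0 to 2053 CPM with a median of 46.7. Its summed level was 242 CPM, then 3.88 at puberty, with 1 read in the adult. Pubertal cell 52 held 86.1% of the pubertal S100b reads, without which the level was 0.545 CPM. That cell had 10 of 20 Schwann cell and 5 of 14 epithelial markers. Gap43 (Entrez 14432, chr16:42248552-42340651, minus strand) was present in only 26 pre-pubertal cells (22.4%, 15.2 to 31.1), and the median cell had no read, the highest 1154 CPM. That one cell, number 48, held 42.0% of the Gap43 reads of its stage, so that the summed level of 35.6 CPM dropped to 21.0 without it. At puberty 98.2% of the Gap43 reads were in cell 58, a cell with 9 of 10 fibroblast markers, and no adult cell had a read.

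The secreted proteins spanned the widest range. Egfl8 (Entrez 81701, chr17:34613349-34616562, minus strand) was found in 102 of 116 thinned pre-pubertal cells (87.9%, 80.6 to 93.2), at 0 to 4121 CPM with a median of 155.5. Its summed level was 488 CPM at pre-puberty (481 to 495), 6.91 at puberty and 0 in the adult. The fold over the adult was 3041 with the adult value set at 3 counts over the stage, which again is no lower bound. Of the pubertal reads 63.0% were in cell 55, and the level without it was 2.58 CPM. The 4 pubertal cells with Egfl8 had a median of 186 CPM, near the 203 CPM of the pre-pubertal cells that carried it. Dhh (Entrez 13363, chr15:98881615-98898562, minus strand) was the scarcest of the 10, in 17 pre-pubertal cells (14.7%, 8.78 to 22.4) at up to 524 CPM and 16.8 CPM in sum. It was seen in 1 pubertal cell, number 119, at 70.5 CPM, and in no adult cell. Lgi4 (Entrez 243914, chr7:31058909-31070935, plus strand) was found in 55 cells (47.4%, 38.1 to 56.9), at 0 to 1844 CPM with a median of 5.66. Pre-pubertal cell 12 held 27.7% of its reads, and the level was 93.3 CPM with and 68.4 without that cell. At puberty it was 0.263 CPM, or 0.0590 without cell 124, which held 77.8% of the reads, and the adult value was 0.

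Gpr37l1, the glial receptor (Entrez 171469, chr1:135160250-135167681, minus strand), was found in 59 pre-pubertal cells (50.9%, 41.4 to 60.3). Its level ran from 0 to 2571 CPM with a median of 8.75, and the sum of 125 CPM was 102 without the top cell, number 126. At puberty 98.4% of its reads were in cell 77, at 303 CPM, the cell that also held the Fabp7 reads. No adult cell had a read of Gpr37l1, Gap43, Fabp7, Dhh, Egfl8 or Lgi4, which for each allows a share of up to 8.04% of cells.

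**Figure D3:**
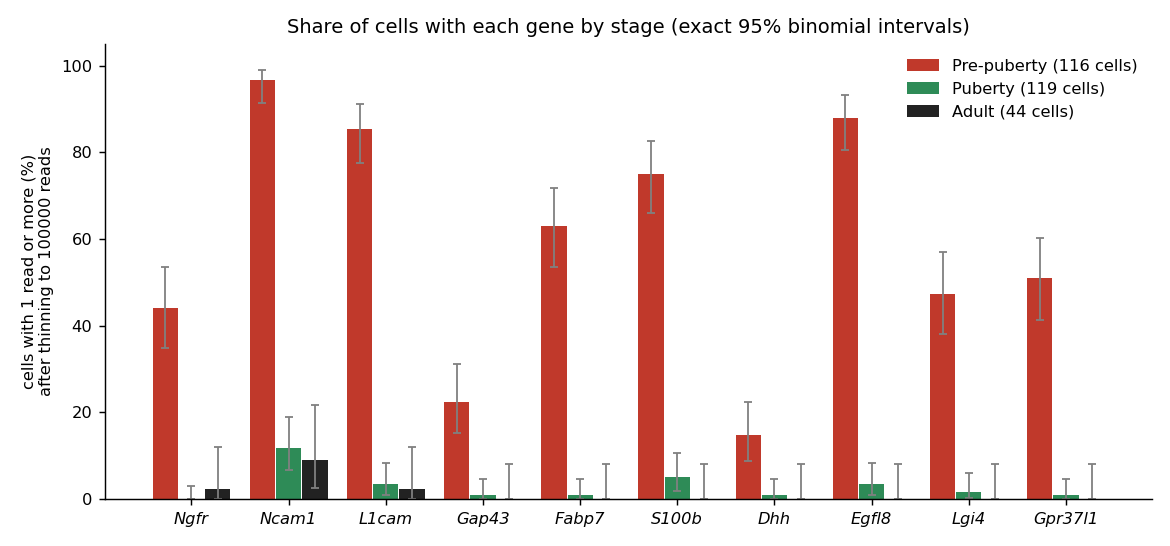
Share of kept cells with 1 read or more of each gene after thinning to 100000 reads, as a percentage, by stage, with exact 95% binomial intervals. The pre-pubertal shares run from 14.7% for Dhh to 96.6% for Ncam1, and the highest later share is 11.8%, for Ncam1 at puberty.

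Compared per length, as RPKM (CPM per 1000 bases of gene length), the pre-pubertal order was Egfl8 (423), Fabp7 (279), S100b (145.6), Ncam1 (95.1), Gpr37l1 (55.5), L1cam (28.6), Gap43 (27.2), Lgi4 (27.1), Ngfr (18.4) and Dhh (7.09). The quartile ranges over cells overlapped for each pair of neighbours in this order but for L1cam and Gap43, whose quartiles were 4.69 to 36.1 and 0 to 3.22 RPKM. Thus the gene found in the fewest cells, Dhh, also had the lowest level per length. The order of the middle genes depended on single cells, since without the top cell of each gene Gap43 stood at 16.0 RPKM, Ngfr at 16.3 and Lgi4 at 19.9. It also differed by the median cell, where Ncam1 (66.2 RPKM) stood above Fabp7 (52.9) and S100b (28.1), and Ngfr (0.169) above Gap43 (0).

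Co-detection asked whether the other 9 genes were found more often in the 51 pre-pubertal cells with Ngfr than in the 65 without it. For all 9 genes the counting interval of the difference included 0. Ncam1 was present in 100% of the cells with Ngfr (93.0 to 100) and 93.8% of those without (85.0 to 98.3), a difference of 6.15 points (Newcombe interval −1.78 to 14.8). L1cam was present in 90.2% and 81.5% (8.66 points, −4.84 to 21.1), and S100b in 78.4% and 72.3% (6.12 points, −9.96 to 21.1). Fabp7 had the largest difference, 68.6% against 58.5% (10.2 points, −7.48 to 26.6), and was the single gene of the 9 to pass 10 points, where 9.69% of 9878 genes did so upwards and 6.40% downwards. Egfl8 was the one gene less often found with Ngfr, in 84.3% against 90.8% (−6.46 points, −19.7 to 5.64). Gap43, Dhh, Lgi4 and Gpr37l1 differed by 0.211 to 2.87 points. The interval of each of the 9 differences included 0 and reached at least 5.64 points upwards, so that differences of that size could not be told from none. Which gene passed 10 points depended on the thinning and on the cells taken, as the closing part gives.

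The cells with and without Ngfr had medians of 297880 and 295257 reads and of 2909 and 2802 genes after thinning. Their medians were 13.0 and 12.0 Schwann cell markers and 1.00 and 0 epithelial markers. Cells numbered 1 to 37, which were read more deeply, made up 8 of the 51 cells with Ngfr and 4 of the 65 without. Cells with Ngfr carried a median of 6.00 of the other 9 genes (quartiles 5.00 to 6.5, range 3 to 8) and cells without it 5.00 (4.00 to 7.00, range 0 to 8). In summed level, Gpr37l1 stood at 44.1 CPM in cells with Ngfr and 199 CPM in cells without, or 156.1 CPM without cell 126. Lgi4 stood at 65.9 and 119 CPM, and at 65.9 and 70.9 without cell 12. Gap43 stood at 53.5 with and 19.3 CPM without Ngfr, and at 22.9 and 19.3 without cell 48. These differences thus rested on 1 cell for Lgi4 and Gap43.

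**Figure D4:**
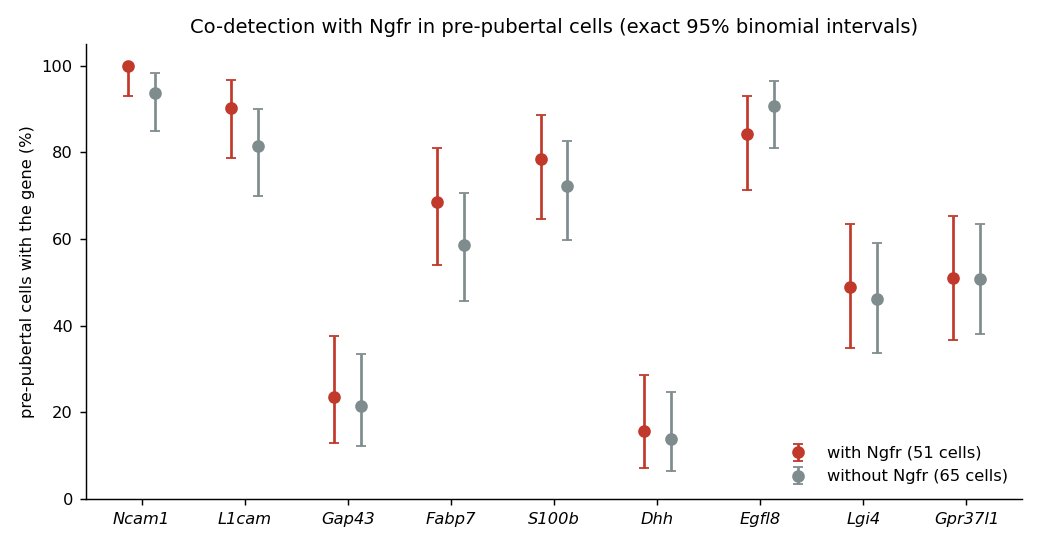
Share of pre-pubertal cells with each of the other 9 genes (y axis, percent) among the 51 cells with an Ngfr read and the 65 without, after thinning, with exact 95% binomial intervals. The paired intervals overlap for every gene.

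Pairs of the other genes were looked at after these values had been seen. Over the 45 pairs of the 10 genes, the share of the second gene was higher in cells with the first for 36 and lower for 9, and the interval of the difference lay above 0 for 6 pairs and below 0 for none, with no correction for the number of pairs. Without Ncam1, which only 4 cells lacked, 4 of 36 pairs had such an interval. L1cam went with Fabp7, which 68.7% of cells with L1cam and 29.4% of the 17 without it carried (39.3 points, 13.7 to 57.4). S100b went with Lgi4, in 55.2% against 24.1% (31.0 points, 10.2 to 46.6). The remaining pairs were L1cam with S100b (25.8 points, 3.08 to 48.9) and S100b with Egfl8 (20.7 points, 5.86 to 39.2). Cells with L1cam had 8 of the 9 other genes in a share higher by 10 points or more, and none lower, beside 12.1% and 19.9% of all genes. They had fewer detected genes in the median cell (2806 against 3187). Cells 41 and 119, which had none of the 10 genes, are among the 17 without L1cam. Neither this count nor the pairs were redone without them. Cells with Gpr37l1 had none of the 9 higher or lower by that much, beside 9.83% and 5.80%. L1cam and Gpr37l1 gave the largest and smallest counts of higher genes among the 10 such splits, and the others ran from 1 to 7.

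**Figure D5:**
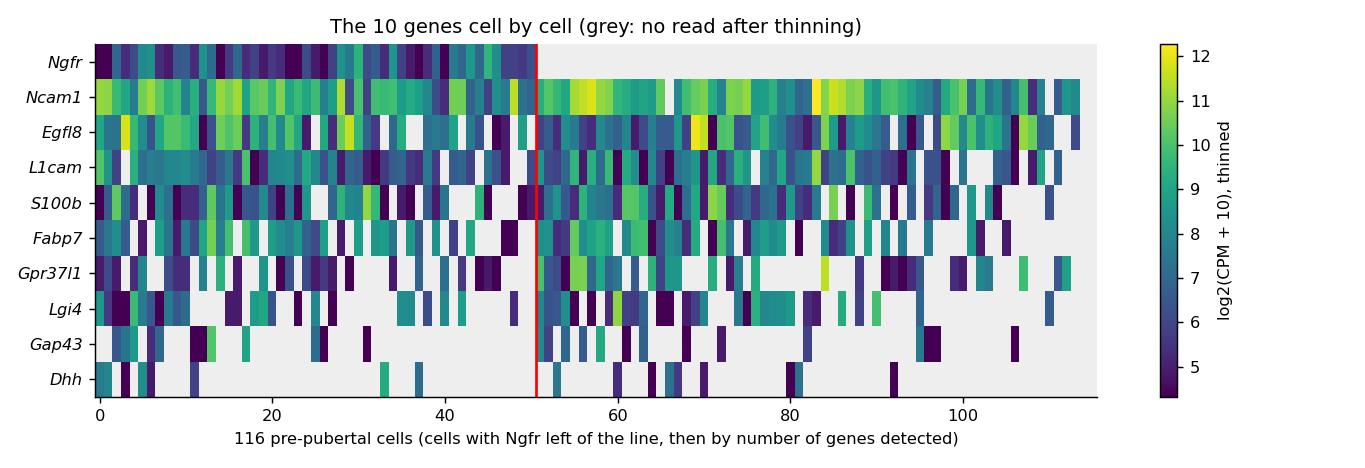
The 10 genes (rows) in the 116 pre-pubertal cells (columns), coloured by log2(CPM + 10) of the thinned counts, with grey where a cell had no read. The 51 cells with Ngfr stand left of the line, and the other genes are spread over both sides of it.

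A few pre-pubertal cells stood apart. Cells 41 and 119 had none of the 10 genes after thinning. Cell 41 carried 8 of 10 fibroblast markers and 6 of 20 Schwann cell markers, and cell 119 had 10 Schwann cell and 5 epithelial markers. Cells 91 and 103 had 2 of the genes each, Ncam1 with Gpr37l1 and Ncam1 with Egfl8. The kept pre-pubertal cells also fall into blocks by cell number, a split known from depth and not from the labels, with 12 cells numbered 1 to 37 (median 937012 reads) and 104 numbered 38 on (283473). Ngfr was present in 66.7% of the first (34.9 to 90.1) and 41.3% of the second (31.8 to 51.4), at 124 and 41.5 CPM. Gpr37l1 went the other way, with 16.7% (2.09 to 48.4) and 54.8% (44.7 to 64.6). The median of genes per cell was 6.00 in both blocks.

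Among the 25 pubertal cells with any of the 10 genes, 19 had 1 gene, 8 of these being Ncam1, and 3 each had 2 and 3 genes. These cells carried a median of 8.00 epithelial markers (range 3 to 13) and 2.00 Schwann cell markers (0 to 10), close to the medians of all pubertal cells. Cells 42, 64 and 77 had 3 genes each, Ncam1 in all of them, joined by L1cam and S100b in cell 42, by S100b and Lgi4 in cell 64 and by Fabp7 and Gpr37l1 in cell 77. Cell 77 had 10 Schwann cell, 10 epithelial and 7 fibroblast markers, and cell 55, with Ncam1 and Egfl8 at a sum of 1314 CPM, had 7, 5 and 3. The 6 adult cells had 1 gene each, which was Ncam1 in 4, with a median of 7.50 epithelial and 3.50 Schwann cell markers.

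Related genes were counted by the same rule, a log2 ratio of 1 or more among genes at 10 CPM or more. The counts stand beside 21.4% of all genes higher and 24.0% lower against puberty, and 31.7% and 28.9% against the adult. Of the neurotrophin receptors and sorting co-receptors other than Ngfr, 5 of 5 were higher at pre-puberty than at both later stages. Ntrk3, the receptor for neurotrophin-3, stood at 245, 2.39 and 5.56 CPM at pre-puberty, puberty and in the adult, where the top cells held 50.6% and 81.7% of the later reads and the levels without them were 1.19 and 1.06 CPM. Ntrk2, the receptor for BDNF, stood at 120, 1.69 and 28.7 CPM. One adult cell held 82.7% of the adult Ntrk2 reads, and the level without it was 5.10 CPM. The ligand side differed, since among 4 neurotrophin genes Bdnf alone reached 10 CPM, and its 43.1, 85.2 and 103 CPM gave log2 ratios of −0.91 against puberty and −1.16 against the adult. With the top cells of the stages left out, Bdnf stood at 16.8, 71.9 and 39.6 CPM. Of 9 adaptors that Ngfr signals through, 3 were higher and 1 lower against puberty, and 3 and 4 against the adult, a share of higher genes near that of all genes for the adult.

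In the L1 and NCAM family with its partners, 9 of 12 were higher and 1 lower against each later stage. Chl1, the close homologue of L1cam, stood at 679, 3.18 and 0.588 CPM, and Cdh19, a cadherin of Schwann cells, at 1016, 0.161 and 55.9 CPM, the last from a single cell. LGI proteins and the ADAM receptors they bind were higher in 4 of 4, among them Lgi1 (135, 0.0146 and 0.695 CPM) and Adam23 (901, 59.6 and 0.0535 CPM). The relatives of S100b and Fabp7 were mixed. Of 9 other S100 genes 1 was higher and 5 lower against puberty, and against the adult 3 and 5. The one higher in both was S100a4, named after its values were seen, at 182, 14.3 and 0.107 CPM, and 4.44 at puberty without its top cell, while S100a6 stood at 709, 2415 and 1565 CPM. The adipocyte form Fabp4 was lower at 68.6, 591 and 1303 CPM (837 once the top adult cell was left out), and Fabp5 stood at 30.2, 13.1 and 7.38, higher than in the adult by 1.51 on the log2 scale. Of the hedgehog pathway around Dhh, 2 of 8 were higher and 4 lower against puberty and 2 and 3 against the adult. Smo, the transducer of the hedgehog signal, stood at 6.44, 37.5 and 68.8 CPM (15.5 once the top adult cell was left out), while its inhibitor Ptch1 stood at 32.9, 6.45 and 0.0535 CPM (19.7 at pre-puberty without its top cell). By share of thinned cells, Ptch1 was not higher than at puberty, with 14.7%, 23.5% and 2.27% at the 3 stages. Of the Gap43 relatives, Marcks stood at 8166, 3465 and 1637 CPM, Marcksl1 at 220, 94.9 and 215, and Basp1 at 1.30, 31.9 and 4.44. Psap, a proposed source of ligand for Gpr37l1, stood at 37.1, 11.5 and 44.0 CPM, while Gpr37 and Egfl7, relatives of Gpr37l1 and Egfl8, stayed below 10 CPM. Of the Schwann cell markers 18 of 20 were higher and none lower against each later stage, and of the epithelial markers 11 of 14 were lower against puberty and 14 against the adult. Those not lower against puberty were the basal keratins Krt14, Krt17 and Krt5, with log2 ratios of −0.66, −0.29 and 0.47.

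Some of the genes share ground with a neighbour, and the counting was not stated to use strand, so reads from shared bases cannot be told apart. Fxyd3, on the other strand, shares 401 bases with Lgi4. It stood at 54.6, 269 and 596 CPM while Lgi4 stood at 93.3, 0.263 and 0, so the 2 ran opposite. Agpat1 shares 101 bases with Egfl8 and stood at 16.9, 22.1 and 12.1 CPM. The long non-coding Gm11149 lies within the span of Ncam1 and reached 2.92 CPM at pre-puberty with no read later.

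Genes whose pattern was most like that of the 10 were named as a description. Over the 116 pre-pubertal cells, on log2(CPM + 10) of thinned counts, the genes closest to Ngfr by Pearson correlation among 4864 were Chd4 (0.37), Yaf2 (0.34), Cast (0.32), Stt3a (0.32) and Myo10 (0.31), all weak. The other 9 genes of the group had values from −0.20 for Gpr37l1 to 0.03 for Gap43. Over all 279 kept cells, genes among the closest to the mean of the 10 by Spearman correlation, of 7680 compared, were Kcna1 (0.88), Abca8a (0.87), Gpm6b (0.85), Chl1 (0.85), Zeb2 (0.84), Lpar1 (0.84), Fxyd1 (0.83), Ttyh2 (0.83) and Matn2 (0.82). These points share their stage, which separates most of the cells, and the values mostly follow it. Kcna1, a potassium channel, stood at 2597, 10.8 and 0 CPM, and at 5.98 CPM at puberty without its top cell.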

How the data were processed

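The authors mapped read pairs to mm10 with Subread (1.4.6 in the submitters' processing notes) and counted them per Entrez gene by featureCounts with the RefSeq annotation built into Rsubread. The deposited values are raw counts per gene and cell, with no molecular identifiers, so copies made by amplification are counted, and the authors' gene lengths in the files were used for RPKM. Of 27179 genes, 25275 matched RefSeq (GRCm38.p6). As in the study, the 1904 unmatched, 15 mitochondrial and 118 ribosomal protein genes were removed, and cells under 100000 reads or 1500 genes were left out. The same table for the whole series held identical columns and was not used. No 2 cells held identical counts, and no doublet caller was run.

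CPM are reads summed over the kept cells of a stage per 1000000, with exact Poisson intervals. Shares of cells came from counts thinned at random to 100000 reads per cell (seed 1), with exact Clopper-Pearson intervals, and differences of shares have Newcombe intervals, all at 95%. A share of 0 is given with the upper end of its exact interval. Log2 ratios had 5 CPM added and correlations 10 CPM. Co-detection was set against genes found in 5% or more of the pre-pubertal cells. Genes close to Ngfr were sought among those in 20% of the pre-pubertal cells, and those close to the mean of the 10 among those in 10% of all kept cells. Of each related list at most 4 genes, those with the largest CPM at any stage, could be named. The text gives some of them and counts the rest, and Ptch1 and S100a4 were added after their values were seen. The basal keratins Krt14, Krt17 and Krt5 were also named outside this rule. A further gene is not reported here. The members and lists were chosen with earlier results of these data known. Python 3.11.15, numpy 2.4.6, pandas 2.3.3 and scipy 1.17.1 were used, and the steps were tested on simulated data.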

Additional observations from a re-analysis of the deposited data

Results flagged for a closer look

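Cells below the coverage filter, which entered no comparison, also held reads of the 10 genes, above the 3-count limit of their totals. In the 28 pre-pubertal cells below it the sum came to 2184 CPM (exact Poisson interval 2061 to 2314), or 1886 without the top cell, beside 2324 CPM in the kept cells. All 28 had a read of at least 1 of the genes and 8 had one of Ngfr, although their median depth was 11328 reads, and 25 of them were numbered 1 to 37. In the 17 pubertal cells below the filter the sum was 81.5 CPM (62.3 to 105), all of it Ncam1, and 6.06 CPM without the top cell. The 22 adult cells below it held 1 read of the 10 genes.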

How the results depend on the processing

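All 10 genes kept their highest level at pre-puberty with no coverage filter, a stricter one (200000 reads and 2000 genes), equal weight for each cell, every gene in the library total, no top cell and, at pre-puberty, only cells from number 38. All 10 kept a log2 ratio of 1 or more over both later stages with 1 or 10 CPM added, no top cell, equal weight, no coverage filter and no minimum CPM. The median ratio of the 10 genes ranged from 3.73 to 5.92 against puberty and from 3.84 to 6.57 against the adult. Leaving out the top cell of each stage for each gene moved the median of all genes over the adult from 0.03 to 0.65 and the share of all genes called higher from 31.7% to 43.1%. With no minimum CPM that share was 9.43% against puberty and 14.2% against the adult. Leaving out the top cell for the levels with and without Ngfr and for the order per length was chosen after seeing the data.

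The share of pre-pubertal cells with Ngfr fell to 33.6% with 3 reads or more required and to 11.2% above 40 RPKM. The gene found 10 points more often with Ngfr was Fabp7 as reported and with the stricter filter, S100b without thinning and L1cam in cells from number 38, and 0 genes were higher with another random draw or with Ngfr at 3 reads or more. With these last settings 1 gene was lower, Lgi4 and Gpr37l1 in turn. No paired analysis was possible because cell numbers only name cells and no result comes from a test. Depth limits shares of cells, since a gene missed in a cell of 100000 reads may be present at a low level.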
